A study of Homo sapiens with 6 samples.

Results

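The autophagy machinery is described here through 10 of its genes in K562 cells after treatment with the compound HR-19011: the cargo receptors SQSTM1 and NBR1, the ATG8-family genes MAP1LC3B, GABARAPL1 and GABARAPL2, the initiation and phagophore genes ULK1 and WIPI1, and the conjugation genes ATG5, ATG12 and ATG16L1. The genes were chosen by symbol, with earlier results of these data known. All 10 were found among the 46427 genes of the deposited tables. K562 is an established human erythroleukemia cell line, labelled as wild type and of bone marrow origin. The 3 vehicle libraries came from cells given 0.1% DMSO for 24 h, and the 3 HR-19011 libraries from cells given 10 µM HR-19011 for 24 h. The DMSO content of the treated cultures is not given in the labels, and neither is whether a group's 3 libraries were grown as separate cultures. P-values therefore cover the spread between these libraries, which may be technical. The comparison asks how transcripts of the autophagy machinery differed between treated and vehicle cells, in a series whose title names the integrated stress response.

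Macroautophagy encloses cytoplasmic cargo in a double membrane, the phagophore, which closes into an autophagosome and fuses with lysosomes. The ULK1 kinase complex starts the process, a class III phosphatidylinositol 3-kinase marks the membrane with its lipid, and WIPI proteins bind that lipid. Small ubiquitin-like proteins of the ATG8 family (the LC3 and GABARAP branches) are then attached to membrane lipid by a conjugation system in which ATG12 is joined to ATG5 and held at the membrane by ATG16L1. Receptors such as p62, encoded by SQSTM1, and NBR1 bind ubiquitinated cargo on one side and ATG8 proteins on the other. ATF4 and CHOP, transcription factors of the integrated stress response, are known to induce several of these genes. RNA was measured here, and it gives neither protein levels nor the rate at which autophagosomes are formed or degraded.

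The values are FPKM, fragments scaled to transcript length and to the mapped fragments of the library, so levels can be set side by side between genes. The number of reads behind each value is unknown. Summed FPKM ranged from 456639 to 467595 over the vehicle libraries and from 420661 to 427819 over the HR-19011 libraries. Pearson correlation of log2(FPKM + 1) over all genes was 0.9986 to 0.9988 within groups and 0.9676 to 0.9684 across groups, and no library stood apart from its group. Changes are log2 fold changes on the log2(FPKM + 1) scale from limma, which understate the change of low genes, and a gene was called at a Benjamini-Hochberg adjusted p under 0.05. The transcriptome moved widely: 84.4% of 11856 tested genes were called, 46.4% higher and 38.0% lower in HR-19011. Higher genes made up 55.0% of the calls with FPKM as deposited and 40.9% after TMM scaling. Over all tested genes the log2 fold change had a median of 0.07. TMM scaling shifted this median by -0.21, quantile normalization shifted it by -0.13, and conversion to TPM by 0.12.

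All 8 erythroleukemia markers fixed for the cell check, among them the globins HBG1 and HBZ and the regulator GATA1, were at 1 FPKM or more, and the list summed to 9821 to 10010 FPKM in vehicle and to 4268 to 4492 in HR-19011. Of 6 lymphoid markers CD3D alone reached 1 FPKM, CD2 and MS4A1 were listed at 0 in all libraries, and the list summed to 6.72 to 9.58 FPKM in vehicle and 12.7 to 13.2 in HR-19011. Of 4 monocyte and macrophage markers CD68 and LYZ reached 1 FPKM, with sums of 27.6 to 28.0 and 39.0 to 41.6 FPKM. Of 6 fibroblast and epithelial markers EPCAM and KRT8 did so, and this list summed to 149.6 to 159.2 FPKM in vehicle and 383.5 to 396.3 in HR-19011. That sum followed KRT8, which rose from 121.4 to 371.0 FPKM, whereas EPCAM fell from 32.5 to 20.3 FPKM. The part of these markers in the results was not tested. In such bulk libraries, more cells with a transcript and more RNA per cell cannot be told apart.

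Of the 10 genes 8 were higher and 2 lower in HR-19011, and none of the 10 had overlapping groups. Since 84.4% of all tested genes were called and 85.2% had groups that did not overlap, being called sets no gene of the 10 apart. Direction and size can be set beside the table as a whole. The 10 genes were chosen with earlier results of these data known, so this contrast is a description and not a test. The share of higher calls was 46.4% over all tested genes, and calls of at least 2-fold on the log2(FPKM + 1) scale made up 18.5%, or 12.0% for higher genes. Such calls numbered 6 higher and 0 lower among the 10 genes, the 6 being WIPI1, SQSTM1, MAP1LC3B, GABARAPL1, ULK1 and NBR1. With a pseudocount of 5 GABARAPL1 and ULK1 fell under 2-fold, at log2 fold changes of 0.88 and 0.92. The median log2 fold change of all 10 was 1.30, against 0.07 over the whole table. Every one of the 10 passed the filter of a mean of 1 FPKM in both groups, the lowest group mean being that of WIPI1 in vehicle.

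**Figure D1:**
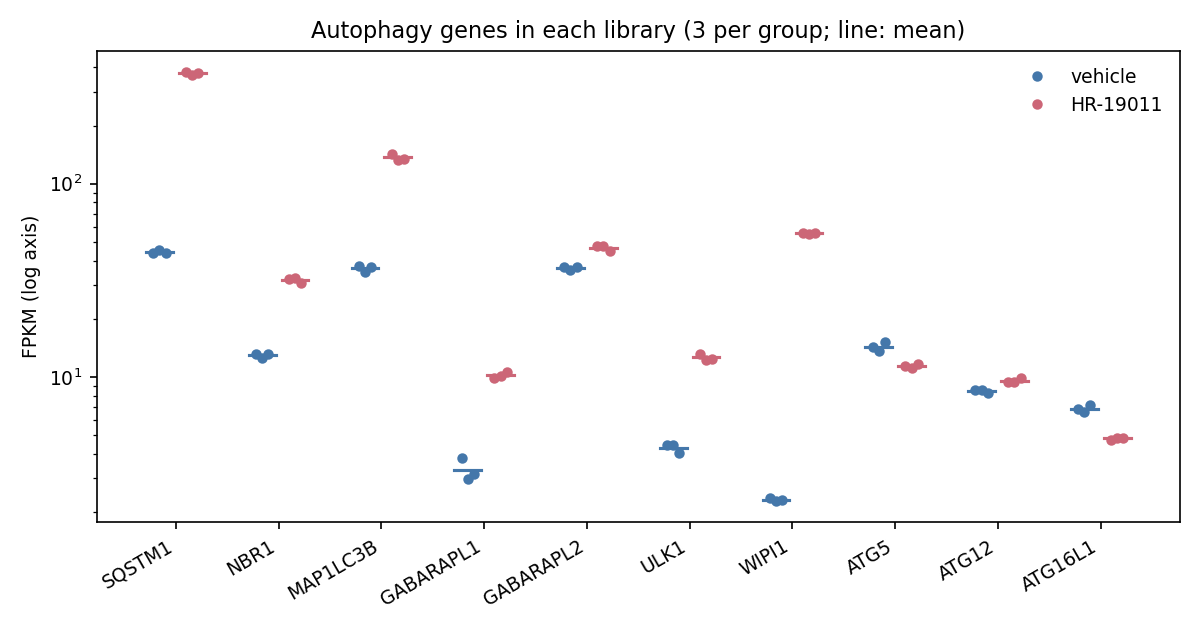
FPKM of each of the 10 genes (horizontal axis) in the 3 vehicle and 3 HR-19011 libraries, on a logarithmic vertical axis. Points are libraries and short lines are group means. WIPI1 moves from the lowest level in vehicle, 2.31 FPKM, to the third highest in HR-19011, 55.4 FPKM, while ATG5 and ATG16L1 move down.

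In vehicle cells the levels ran from SQSTM1, at a mean of 44.2 FPKM, through GABARAPL2 at 36.6, MAP1LC3B at 36.5, ATG5 at 14.3, NBR1 at 12.9, ATG12 at 8.45, ATG16L1 at 6.85, ULK1 at 4.30 and GABARAPL1 at 3.31 to WIPI1 at 2.31. GABARAPL2 and MAP1LC3B had overlapping library ranges there, and every other neighbouring pair was separated. After HR-19011 the order was SQSTM1, MAP1LC3B, WIPI1, GABARAPL2, NBR1, ULK1, ATG5, GABARAPL1, ATG12 and ATG16L1, with no overlap between neighbours. Their summed level was 166.8 to 171.5 FPKM in vehicle and 684.2 to 703.5 FPKM in HR-19011. Within groups the coefficient of variation of a gene's level lay between 1.83% (ATG12) and 13.9% (GABARAPL1) in vehicle, and between 0.811% (WIPI1) and 3.94% (ULK1) in HR-19011.

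The 2 cargo receptors both rose. SQSTM1 encodes p62, which gathers ubiquitinated proteins into condensates and tethers them to LC3, and lies on chromosome 5 from 179806393 to 179838078 of GRCh38 on the plus strand. It was listed at 43.6, 45.2 and 43.6 FPKM in the vehicle libraries and at 378.0, 367.7 and 375.4 FPKM in the HR-19011 libraries. Each treated library was more than 8 times any vehicle library, and SQSTM1 was the highest of the 10 genes in both groups. Its mean went from 44.2 ± 0.904 to 373.7 ± 5.35 FPKM (SD, n = 3), which is 8.46-fold. The log2 fold change was 3.05 (SE 0.0260, limma adjusted p = 2.07e-11) and ranked 70 from the top of 11856 tested genes.

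NBR1, a receptor with a domain layout like that of p62, lies on chromosome 17 from 43170409 to 43211688 on the plus strand. It stood at 13.1, 12.5 and 13.2 FPKM in vehicle and at 32.0, 32.6 and 30.6 FPKM in HR-19011, so every treated library lay above every vehicle library. The mean rose 2.45-fold, a log2 fold change of 1.23 (SE 0.0372, limma adjusted p = 4.57e-09), and ranked 957. The noncoding gene NBR2, a separate locus on the same chromosome from 43125557 to 43153671, went from 3.20 ± 0.328 to 17.5 ± 0.496 FPKM, a log2 fold change of 2.14.

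Among soluble receptors SQSTM1 took a larger part of the transcripts after treatment. Its share of the summed FPKM of SQSTM1, NBR1, OPTN, CALCOCO2, TAX1BP1 and TOLLIP was 46.9%, 47.8% and 46.8% in the vehicle libraries and 74.2%, 73.5% and 74.6% in the HR-19011 libraries. Such a share is a ratio within a library, so a scaling factor applied to a whole library leaves it as it is, while quantile normalization can move it. The groups did not overlap, and the difference of 26.9 percentage points had p = 0.1 in an exact two-sided permutation test, the smallest p that 3 against 3 libraries allow (adjusted p = 0.106 over the 18 shares and ratios tested). The NBR1 share went from 13.8% ± 0.491 to 6.29% ± 0.216 although NBR1 itself rose. The TAX1BP1 share went from 22.6% ± 0.600 to 8.92% ± 0.0852, although TAX1BP1 itself rose from 21.1 to 45.0 FPKM. OPTN, a receptor best known from the removal of damaged mitochondria, went from 0.868% ± 0.0924 to 2.68% ± 0.0233. With NCOA4 and CALCOCO1, which also act as receptors, added to the sum after the values were seen, the SQSTM1 share went from 27.4% ± 0.854 to 63.2% ± 0.331. The summed level of the 6 receptors was 93.6 ± 0.804 FPKM in vehicle and 504.3 ± 4.62 FPKM in HR-19011.

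The 3 ATG8-family genes rose by unequal amounts. MAP1LC3B encodes LC3B, the protein whose lipid-bound form is the usual marker of autophagosomes, and lies on chromosome 16 from 87392336 to 87404774 on the plus strand. Its level was 37.7, 34.9 and 37.0 FPKM in vehicle and 142.1, 133.4 and 134.9 FPKM in HR-19011, well apart. The mean rose 3.75-fold, a log2 fold change of 1.88 (SE 0.0380, limma adjusted p = 4.81e-10), and ranked 359. GABARAPL1, of the GABARAP branch, lies on chromosome 12 from 10212877 to 10223128 on the plus strand, and went from 3.82, 2.95 and 3.14 FPKM to 9.91, 10.1 and 10.6 FPKM. It varied more between vehicle libraries than any other of the 10 genes, and its treated libraries still lay clear above them. GABARAPL1 rose 3.09-fold, with a log2 fold change of 1.39 (SE 0.0736, limma adjusted p = 1.56e-07) that was 0.88 with a pseudocount of 5.

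GABARAPL2 encodes GATE-16, first known from transport within the Golgi, and lies on chromosome 16 from 75566379 to 75577881 on the plus strand. It was listed at 37.0, 35.8 and 36.9 FPKM in vehicle and at 47.5, 47.7 and 45.0 FPKM in HR-19011. The groups were separate but close. The 1.28-fold rise, a log2 fold change of 0.35 (SE 0.0333, limma adjusted p = 9.56e-06), lay within the interquartile range of all tested genes, which ran from -0.38 to 0.55, and came to 0.11 after TMM scaling (limma adjusted p = 0.00971).

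Together these changes altered the mix of ATG8 transcripts. MAP1LC3B and GABARAPL2 held like shares of the summed ATG8-family FPKM in vehicle, 34.2% ± 0.490 and 34.3% ± 0.298 (SD, n = 3). In HR-19011 the MAP1LC3B share was 52.4%, 51.1% and 51.7% in the 3 libraries, and the GABARAPL2 share was 17.5%, 18.3% and 17.2%. GABARAP, the founding gene of its branch, moved little in share, with 27.8% ± 0.841 in vehicle and 25.8% ± 0.304 in HR-19011, and GABARAPL1 held 3.10% ± 0.373 and 3.87% ± 0.209. None of these 4 shares overlapped between groups, and each had p = 0.1 in the exact two-sided permutation test (adjusted p = 0.106). The same held for all of the 18 shares and ratios tested except the MAP1LC3A share, and shares within a family are bound to each other. MAP1LC3C was listed at 0 in all 6 libraries, and MAP1LC3A at 0 in 4 of them and at 0.101 FPKM or less in the rest. The family summed to 106.7 ± 2.95 FPKM in vehicle and 264.5 ± 6.07 FPKM in HR-19011.

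**Figure D2:**
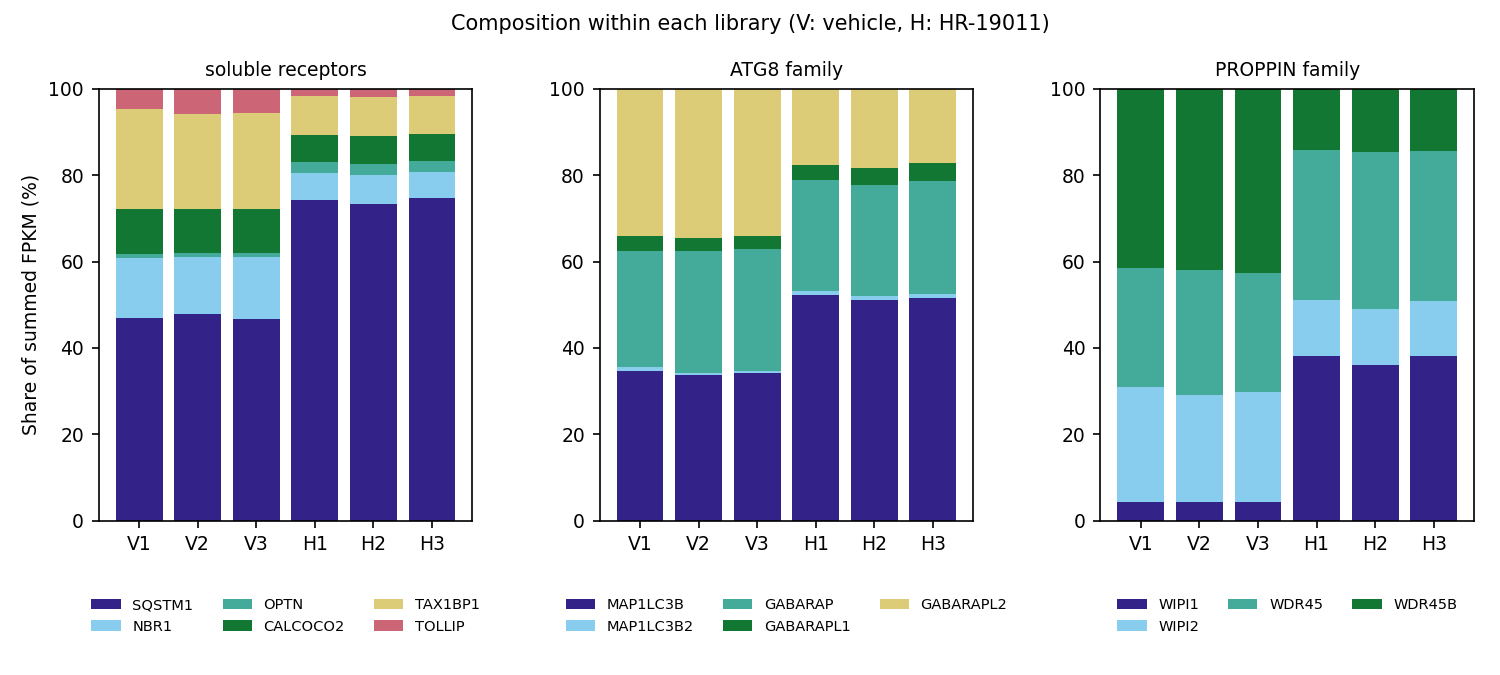
Share of the summed FPKM (vertical axis, percent) held by each gene of 3 families in every library, V1 to V3 for vehicle and H1 to H3 for HR-19011; genes with a share of 0.1% or less in every library are left out. The SQSTM1, MAP1LC3B and WIPI1 bars are taller in each HR-19011 library than in any vehicle library.

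Promoter sequences came from RefSeq on GRCh38.p14, matched by gene identifier for all 10 genes and covering 14 start sites, with 250 bases before and 50 after each. They were searched on both strands for 5 short motifs: TGATGNAA, the core of the C/EBP-ATF response element bound by ATF4; TGACGTCA, the cyclic AMP response element; TCACGTGA, the core of the CLEAR element bound by TFEB; TGACNNNGC, the core of the antioxidant response element bound by NRF2; and TGTTTAC, bound by FOXO factors. The first 4 bases of TGACGTCA and TGACNNNGC are the same, but later bases differ, so both cannot match from the same base. GABARAPL1 and MAP1LC3B held 1 match each, and the other 8 genes none. These 2 promoters are shown because they carry the matches, in capitals, and that of WIPI1 because its gene changed the most of the 10, a choice made after the values were seen. Each runs 5′ to 3′ on its gene's strand and ends at the base before the start site.

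GABARAPL1, chr12:10212627-10212876, plus strand: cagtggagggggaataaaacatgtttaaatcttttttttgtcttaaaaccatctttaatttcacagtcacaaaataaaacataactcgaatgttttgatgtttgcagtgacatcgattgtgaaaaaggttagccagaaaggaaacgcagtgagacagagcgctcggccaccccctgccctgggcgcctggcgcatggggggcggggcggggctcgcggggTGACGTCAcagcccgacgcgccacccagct
MAP1LC3B, chr16:87392086-87392335, plus strand: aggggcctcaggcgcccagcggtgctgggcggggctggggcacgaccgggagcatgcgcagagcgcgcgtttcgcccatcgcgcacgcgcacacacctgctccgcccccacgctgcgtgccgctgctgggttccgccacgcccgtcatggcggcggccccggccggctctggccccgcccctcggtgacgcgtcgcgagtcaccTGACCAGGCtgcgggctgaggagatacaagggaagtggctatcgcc
WIPI1, chr17:68457497-68457746, minus strand: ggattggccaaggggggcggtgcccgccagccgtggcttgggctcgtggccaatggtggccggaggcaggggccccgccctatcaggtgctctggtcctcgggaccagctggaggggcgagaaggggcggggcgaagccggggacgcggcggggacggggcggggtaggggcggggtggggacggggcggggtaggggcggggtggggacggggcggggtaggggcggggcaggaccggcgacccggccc

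The GABARAPL1 match, TGACGTCA, begins at position -30 and the MAP1LC3B match, TGACCAGGC, at position -46, counting the base before the start site as -1. Of the promoters of tested genes 3.08% held TGACGTCA and 14.9% held TGACNNNGC, so matches of the second kind are not rare. TGATGNAA was found in 1.89% of them, TCACGTGA in 1.89% and TGTTTAC in 2.54%. The WIPI1 promoter had a GC content of 79.6%, that of MAP1LC3B 74.8% and that of GABARAPL1 51.6%, where the median over promoters of tested genes was 64.8%. A match is a match of letters, and no match says only that these letters are not in this window.

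WIPI1 and ULK1, which act at the start of phagophore formation, both rose. WIPI1 encodes a propeller-shaped protein that binds phosphatidylinositol 3-phosphate on the phagophore, and lies on chromosome 17 from 68421281 to 68457496 on the minus strand. It was listed at 2.37, 2.28 and 2.30 FPKM in the vehicle libraries and at 55.3, 54.9 and 55.8 FPKM in the HR-19011 libraries. The groups were far apart, and the spread within each was small beside the gap. The mean rose 23.9-fold, from 2.31 ± 0.0484 to 55.4 ± 0.449 FPKM (SD, n = 3). Its log2 fold change of 4.09 (SE 0.0335, limma adjusted p = 2.07e-11) ranked 18 of 11856.

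The other genes of the WIPI family, also called PROPPINs, moved less than WIPI1. WIPI2, which recruits ATG16L1, rose from 13.9 to 19.1 FPKM, and WDR45, also called WIPI4, from 15.2 to 52.1 FPKM. WDR45B, also called WIPI3, had 22.7 ± 0.352 FPKM in vehicle and 21.4 ± 0.871 in HR-19011 and was not called (log2 fold change -0.08, limma adjusted p = 0.062), and it was called lower after TMM scaling. WIPI1 held 4.40%, 4.18% and 4.25% of the family's summed FPKM in vehicle and 38.1%, 36.1% and 38.1% in HR-19011, a share computed after the values were seen. In vehicle cells WIPI1 was the lowest of the 4 genes, and in HR-19011 it was close to WDR45, which held 35.2% ± 0.926. The exact two-sided permutation test of the WIPI1 share gave p = 0.1, the smallest possible (adjusted p = 0.106). Because the share was chosen with the rise of WIPI1 known, this test adds no support.

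ULK1 encodes the serine/threonine kinase that mTORC1 holds inactive in fed cells, and lies on chromosome 12 from 131894622 to 131923150 on the plus strand. It was listed at 4.46, 4.42 and 4.03 FPKM in vehicle and at 13.2, 12.3 and 12.4 FPKM in HR-19011, without overlap. The mean rose 2.93-fold, a log2 fold change of 1.36 (SE 0.0491, limma adjusted p = 1.34e-08), and ranked 797. Its paralogue ULK2 was at 0 in each vehicle library and had a mean of 0.00663 FPKM in HR-19011, so ULK1 carried nearly all ULK1 and ULK2 transcript in these tables.

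Of the 3 conjugation genes ATG5 and ATG16L1 were lower in HR-19011, and ATG12 was slightly higher. ATG5, the acceptor of ATG12, lies on chromosome 6 from 106184476 to 106325760 on the minus strand, and was listed at 14.2, 13.6 and 15.2 FPKM in vehicle and at 11.4, 11.1 and 11.6 FPKM in HR-19011. It fell 1.26-fold, a log2 fold change of -0.31 (SE 0.0457, limma adjusted p = 0.000198), which was -0.53 after TMM scaling and -0.20 as TPM. ATG16L1, which places the complex on the membrane, lies on chromosome 2 from 233251673 to 233295669 on the plus strand, and went from 6.79, 6.61 and 7.14 FPKM to 4.72, 4.84 and 4.84 FPKM. Every treated library was below every vehicle library for both genes. The fall of ATG16L1 was 1.43-fold, a log2 fold change of -0.44 (SE 0.0437, limma adjusted p = 1.30e-05), and 77.2% of tested genes had a higher value.

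ATG12, the ubiquitin-like protein joined to ATG5, lies on chromosome 5 from 115828200 to 115841565 on the minus strand. It was listed at 8.50, 8.58 and 8.28 FPKM in vehicle and at 9.39, 9.42 and 9.88 FPKM in HR-19011. The groups did not overlap, but the gap was narrow. Its log2 fold change was 0.16 (SE 0.0389, limma adjusted p = 0.00398), and this call depended on the scaling: the value was -0.06 after TMM scaling (limma adjusted p = 0.198) and 0.04 after quantile normalization (limma adjusted p = 0.381), while it was 0.29 as TPM. Within libraries the log2 ratio of ATG12 to ATG5 went from -0.76 ± 0.107 to -0.25 ± 0.0228 (SD, n = 3). The log2 ratio of ATG16L1 to ATG5 went from -1.06 ± 0.0246 to -1.24 ± 0.0397, a change of -0.18 that was -0.36 after quantile normalization. Both ratios were free of overlap between groups, with p = 0.1 in exact two-sided permutation tests, the smallest possible (adjusted p = 0.106).

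**Figure D3:**
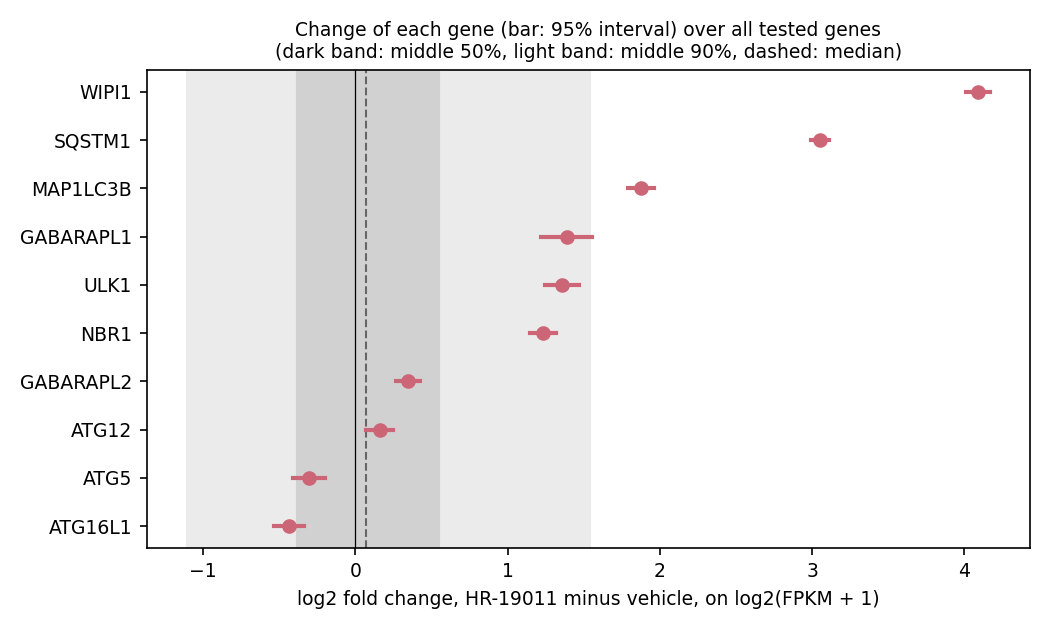
Log2 fold change of each gene (HR-19011 minus vehicle, on log2(FPKM + 1), horizontal axis) with its 95% interval from limma, over the middle 50% (dark band) and middle 90% (light band) of all 11856 tested genes. WIPI1, SQSTM1 and MAP1LC3B lie above the light band, which ends at 1.54, and GABARAPL2, ATG12 and ATG5 lie inside the dark band.

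The spread between the genes was wider than the error of any one of them. The 95% interval of WIPI1 ran from 4.01 to 4.17 and that of SQSTM1 from 2.99 to 3.11, neither reaching any other gene of the 10. The interval of MAP1LC3B ran from 1.79 to 1.96 and stood alone as well. GABARAPL1 (1.22 to 1.56), ULK1 (1.25 to 1.47) and NBR1 (1.15 to 1.32) had overlapping intervals, which alone do not settle their order. Their ratios of mean FPKM were 3.09, 2.93 and 2.45, and the log2(FPKM + 1) scale understates the change of low genes. At the lower end ATG5 (-0.41 to -0.20) and ATG16L1 (-0.54 to -0.34) overlapped too.

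**Figure D4:**
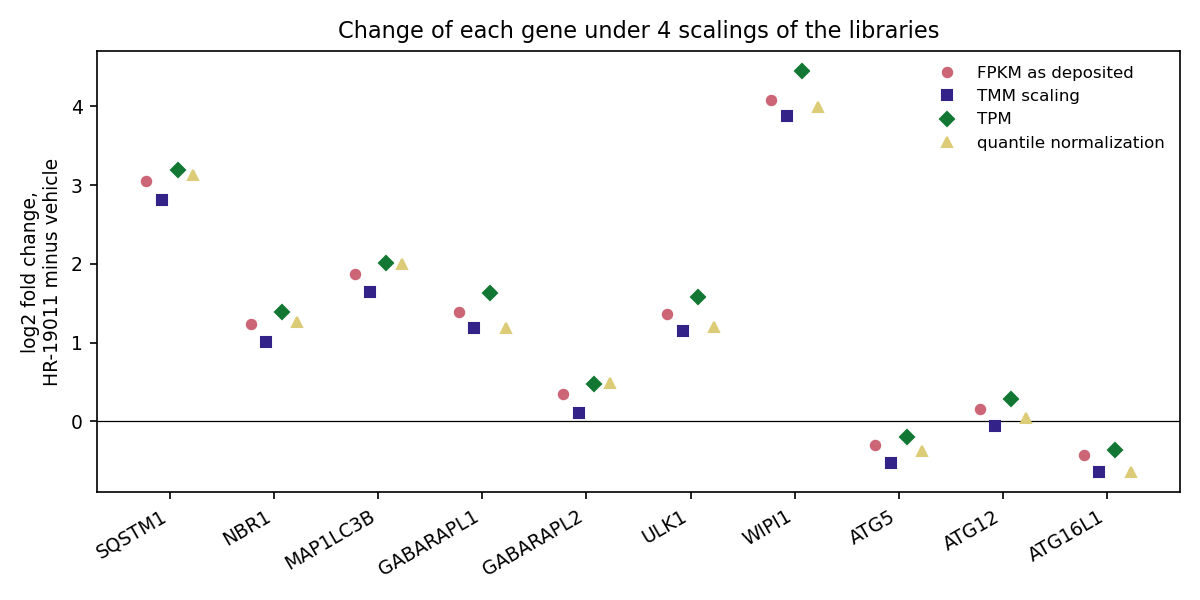
Log2 fold change (HR-19011 minus vehicle, vertical axis) of each of the 10 genes with FPKM as deposited and after TMM scaling, conversion to TPM and quantile normalization. ATG12 is the gene whose value changes sign, from 0.16 as deposited to -0.06 after TMM scaling.

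A further 61 autophagy genes in 8 lists were read from the same model, and 56 of them were tested. Of these 41 were higher and 8 lower, and their median log2 fold change was 0.49. Over all tested genes 46.4% were higher and 38.0% lower. After TMM scaling 33 of the 56 were higher and 15 lower, against 4128 and 5960 of all 11856 tested genes. The list counts that follow are to be read against these shares, since a called gene was the rule in this table. OPTN, ATG16L2 and MAP1LC3B2 had vehicle means under 1 FPKM and so passed the filter through the treated group.

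Soluble cargo receptors other than SQSTM1 and NBR1 had 6 of 6 genes higher, and their median log2 fold change was 1.34. This median includes OPTN, which passed the filter through the treated group. OPTN went from 0.812 ± 0.0859 to 13.5 ± 0.109 FPKM, a log2 fold change of 3.00. NCOA4, the receptor for ferritin, went from 66.1 to 75.3 FPKM, a log2 fold change of 0.19 that became -0.06 and lost its call after TMM scaling. In the ULK complex all 3 tested genes rose: ATG13, the regulatory subunit, from 8.85 to 28.4 FPKM, ATG101 from 18.2 to 25.6 FPKM, and the third was RB1CC1, the scaffold also called FIP200. Of the 2 other ATG8-family genes tested, GABARAP rose from 29.7 ± 0.883 to 68.3 ± 0.967 FPKM, a log2 fold change of 1.18. MAP1LC3B2, whose sequence is close to that of MAP1LC3B, went from 0.580 ± 0.216 to 2.36 ± 0.154 FPKM.

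Phagophore expansion genes had 6 higher, 0 lower and 2 not called of 8 tested, with a median of 0.55, and WDR45 led them with a log2 fold change of 1.71. After TMM scaling 6 were higher and 2 lower, with a median of 0.355. Autophagosome fusion genes had 9 of 10 higher, with a median of 0.50, and 8 higher and 1 lower after TMM scaling, with a median of 0.30. TECPR1, a tethering protein, rose from 1.75 to 4.98 FPKM. RAB7A, the small GTPase of late endosomes, fell from 75.2 to 67.5 FPKM, a log2 fold change of -0.15 that was 0.01 after quantile normalization and not called.

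The class III phosphatidylinositol 3-kinase list was mixed, with 5 higher, 2 lower and 1 not called of 8, and its median of 0.21 came to 0.00 after TMM scaling, with 2 higher, 3 lower and 3 not called. NRBF2, a regulatory subunit, rose from 12.4 to 28.0 FPKM, whereas PIK3R4, the membrane-anchored subunit also called VPS15, fell from 8.80 to 4.83 FPKM. Genes of ATG8 conjugation and processing were divided likewise, with 4 higher, 2 lower and 2 not called of 8, and with 3 higher and 4 lower after TMM scaling. ATG16L2, a paralogue of ATG16L1, went from 0.497 ± 0.157 to 5.99 ± 0.278 FPKM while ATG16L1 fell, and in HR-19011 its level was above that of ATG16L1 at 4.80 ± 0.0701 FPKM. ATG4C, a protease that trims ATG8 proteins, fell from 5.04 to 3.32 FPKM.

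Organelle receptors had 6 higher, 3 lower and 2 not called of 11, with a median of 0.17 that was -0.05 after TMM scaling. The counts turned with the scaling, to 4 higher and 5 lower after TMM scaling and 5 of each after quantile normalization. CCPG1, a receptor for endoplasmic reticulum, rose from 5.71 ± 0.351 to 66.5 ± 0.795 FPKM, 11.6-fold, a log2 fold change of 3.33. PHB2, an inner mitochondrial membrane protein, fell from 220.6 to 144.4 FPKM. The median of the ATG8 conjugation list was also of either sign, 0.17 as deposited and -0.05 after TMM scaling.

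**Figure D5:**
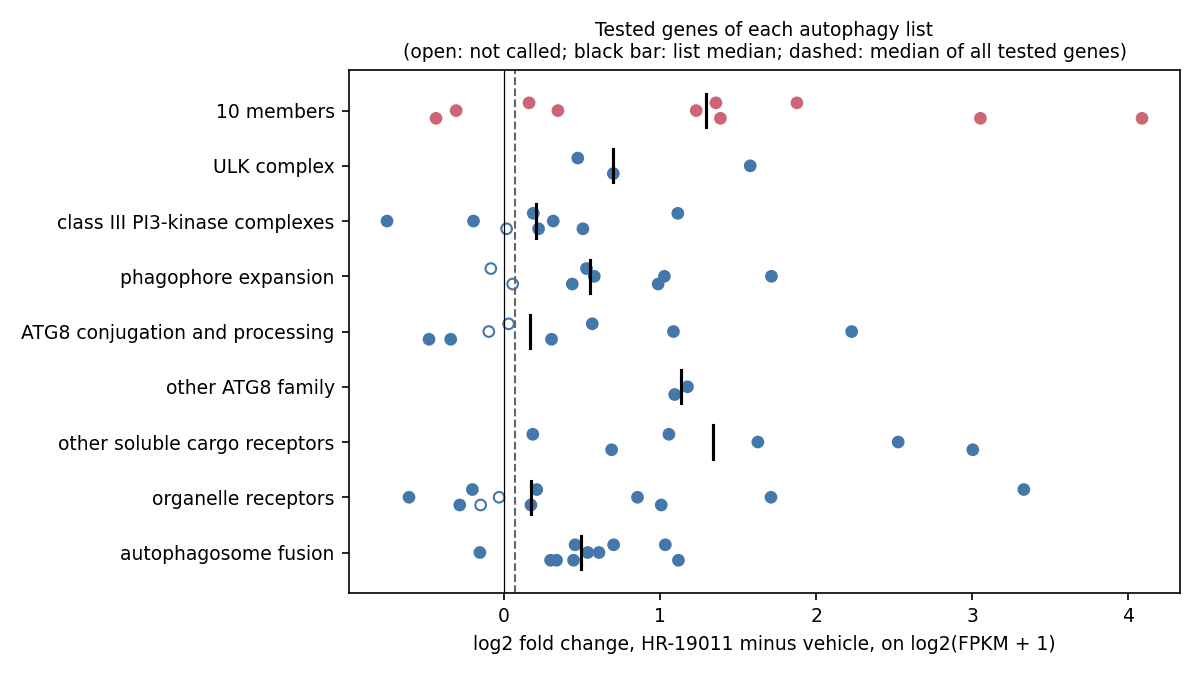
Log2 fold change (HR-19011 minus vehicle, on log2(FPKM + 1), horizontal axis) of every tested gene of the 10 described genes and of 8 further autophagy lists (rows). Filled points were called and open points were not, black bars are list medians, and the dashed line is the median of all tested genes, 0.07. The other soluble cargo receptors had a median of 1.34, which includes OPTN, a gene that passed the filter through the treated group. The 10 genes had a median of 1.30.

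Some of these loci share sequence or ground with other genes, and the sources used here do not say how the authors' counting divided such reads. GABARAPL3 and MAP1LC3BP1, close copies of GABARAPL1 and MAP1LC3B, were listed at 0 in all libraries, and ATG12P1 had 0.0893 FPKM in vehicle and 0.0275 in HR-19011. MAP1LC3B2, also close in sequence to MAP1LC3B, had 0.580 FPKM in vehicle and 2.36 in HR-19011. SQSTM1 overlaps MGAT4B on the opposite strand, whose mean was 35.0 FPKM in vehicle and 60.5 FPKM after treatment. WIPI1 overlaps PRKAR1A, at 17.6 and 38.4 FPKM, and ARSG, at 0.225 and 1.60 FPKM, both on the opposite strand. The microRNA gene MIR635 also overlaps WIPI1, at 0.176 FPKM in vehicle and 2.825 FPKM in HR-19011, and its strand was not available here. The libraries were made with a stranded kit, but whether strand was used in counting is not stated.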

How the data were processed

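RNA from 6 K562 libraries was made into stranded libraries from polyadenylated RNA, per the labels' protocols. The authors deposited FPKM per gene, per the file headers, and no read counts were used here. Per the submitters' processing notes the tools included StringTie 2.1.3b, HISAT2 2.1.0, SAMtools 1.9, Trimmomatic 0.38 and DESeq2 1.24.0, with the build GRCh38 and no roles given. Low values of single-exon genes were searched for whole multiples of 1 read: at the best of 300 steps 28.9% to 35.9% lay within 0.1 of a whole number, where chance gives 20% for 1 step, so depth is unknown and no count model was used. No 2 libraries were duplicates (at most 0.0208% identical values).

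The 11856 genes whose mean over the 6 libraries reached 1 FPKM were fitted together by limma 3.58.1 (R 4.3.3), on log2 values with 1 FPKM added. The model held the group alone and used a mean-variance trend, and p-values were adjusted by Benjamini-Hochberg over all 11856 genes. The test was checked on simulated data. Shares and ratios used exact permutation tests over libraries (SciPy 1.17.1). Folds without log2 are ratios of mean FPKM. The 10 genes, the lists and the tests were chosen with earlier results of these data known. Named are the 10 genes, the highest and lowest called gene of each further list, near copies, and cell type markers. Also named, outside this rule, are RB1CC1, CALCOCO1, CALCOCO2, TAX1BP1, TOLLIP, MAP1LC3A, MAP1LC3C, WDR45B, ULK2, NBR2 and overlapping genes. Positions are from RefSeq by gene identifier. Proteins are not shown.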

Additional observations from a re-analysis of the deposited data

How the results depend on the processing

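Under 16 alternatives 9 of the 10 genes kept their direction and call in each. ATG12 was the exception, at -0.058 after TMM scaling and without a call after quantile normalization (0.04). The median log2 fold change of the 10 genes was 1.41 with a pseudocount of 0.1, 0.90 with a pseudocount of 5, 1.07 after TMM scaling, 1.48 as TPM, 1.19 after quantile normalization and 1.34 with equal totals without the 100 highest genes, an alternative chosen after seeing the data. Leaving out 1 library at a time gave medians of 1.27 to 1.31 and changed no call of the 10 genes. Lower genes of the further lists numbered 15 after TMM scaling and 5 as TPM, against 8. After quantile normalization the rise of the SQSTM1 share was 28.2 percentage points and the change of the log2 ratio of ATG16L1 to ATG5 was -0.36, against 26.9 and -0.18. With NCOA4 and CALCOCO1 in the sum, also chosen after seeing the data, the SQSTM1 share rose by 35.8 percentage points. The cause of these shifts was not tested.

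With the replicate number as a block 9880 genes were called, against 10009, and no call of the 10 genes changed. Same-numbered libraries did not deviate together (r = -0.034, -0.004 and -0.108), and none of the 6 libraries correlated best with its own number. Deviations from a mean of 3 libraries are bound to each other, so these values cannot exclude that the numbers pair the samples. Without read counts, the precision that depth sets is unknown, most of all for WIPI1 and GABARAPL1 in vehicle.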
